A study of Mus musculus with 3 samples.

Results

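The array labelled A2 was compared with the array of untreated cells, 1 array a side. Both hold RNA of HoxA9-Meis1 AML cells, a mouse acute myeloid leukaemia named for the homeobox genes Hoxa9 and Meis1, of C57Bl/6 strain and isolated from whole bone marrow. Per the labels, the cells were kept for 24 h in SFEM medium, a serum-free medium for blood progenitors, either untreated or with Pyrydopyrazine A2 at 3.4 µM. The third array of the series, the RA plus D3V array, is labelled as cells given retinoic acid (RA) and 1α-hydroxy vitamin D3 (D3V) at 10 µM each for 24 h, and its values are printed beside the comparison. The members were chosen by detection and probe sequence, not by the size of their difference, under a rule set with earlier results of these data known. A gene was measured when both arrays had its brightest probe well above background, as the scanner software flags it, which was so for 17093 of the 34770 genes and transcripts on the array design. Probes with 8 or more alternating G and T bases were left out. The labels name 1 sample a condition, so no difference here has a replicate check and none carries a p-value.

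The label of this array is in doubt. The authors' deposited value table holds the same array in its column for RA plus D3V (Spearman 1.0 over all spots), and holds the third array in its column for A2 (Spearman 1.0). Which source is right cannot be told apart here. All directions below belong to the array labelled A2 in the scanner files, and not necessarily to the compound. The name RA plus D3V array is likewise only the scanner label of the third array. Its values do not necessarily belong to cells given RA and D3V. The control column of the value table equals no scanner file (Spearman 0.9356 with the untreated array) and is called the second control. Whether it is a second culture is unknown. It lay at least 2-fold from the untreated array for 179 measured genes (1.047%), with an SD of the log2 difference of 0.2896. The value table is quantile normalized and the scanner signal is not, so both figures include that difference in processing. The scanner software's error model gave a median SD of 0.2044 for a difference between both arrays. On the array labelled A2 27634 of 59305 spots (46.6%) were well above background, against 27291 (46.0%) on the untreated array, and 0 spots were saturated. Levels are given as log2 signal relative to the 75th percentile of the array's probes, so that 0 is that percentile. A difference is the level on the array labelled A2 minus the untreated level of the same probe.

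Retinoic acid acts through the retinoic acid receptors and vitamin D through the vitamin D receptor. Each pairs with a retinoid X receptor on direct repeats of a short half-site in target genes. The best known targets degrade the ligand itself: the CYP26 enzymes hydroxylate retinoic acid, and CYP24A1 hydroxylates active vitamin D. Both ligands are known to drive myeloid leukaemia cells towards granulocytes or monocytes. To show what a target promoter looks like beside the values, the RefSeq promoter table (build GRCm38.p6) was searched in the 250 bases before each start for a DR5 element. DR5 stands for a direct repeat of a half-site (AGGTCA and 3 close forms of it) with 5 bases between the copies, read on either strand. It was present in 29 of 32851 promoters (0.0883%). Cyp26a1 (chr19:37697558-37697807, plus strand) and Rarb (chr14:16575477-16575726, minus strand) hold it, and their 250 bases are printed 5′ to 3′ with the element in capitals.
Cyp26a1: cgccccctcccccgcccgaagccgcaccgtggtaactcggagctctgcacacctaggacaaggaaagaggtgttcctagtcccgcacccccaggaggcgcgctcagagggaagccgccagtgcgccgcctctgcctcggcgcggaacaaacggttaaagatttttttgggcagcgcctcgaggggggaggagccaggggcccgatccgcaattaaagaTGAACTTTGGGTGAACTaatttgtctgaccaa
Rarb: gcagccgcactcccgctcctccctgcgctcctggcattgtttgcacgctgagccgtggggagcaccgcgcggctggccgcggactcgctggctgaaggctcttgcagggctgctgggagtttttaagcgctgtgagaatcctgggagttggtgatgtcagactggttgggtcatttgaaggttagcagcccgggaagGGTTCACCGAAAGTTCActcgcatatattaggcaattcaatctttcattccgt
In Cyp26a1 the element reads on the reverse strand and lies 32 to 16 bases before the start. In Rarb it reads as printed, 53 to 37 bases before the start.

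Of Cyp26a1 and Rarb, only Cyp26a1 differed on the array labelled A2. Cyp26a1, a retinoic acid hydroxylase, was at -6.04 on the untreated array and 2.11 on the array labelled A2, with -5.91 on the RA plus D3V array. It passed the background flag on the array labelled A2 alone, at least 78.7-fold above the untreated array (probe at chromosome 19, 37775566 to 37775625, mm9). Rarb, a retinoic acid receptor gene, was not well above background on any of the 3 arrays (signals of -6.31, -6.28 and -5.39). Of the 29 promoters with the element, 11 belong to genes with a probe on the array. Of these, 4 were measured, and Blvrb (2.21), Tnfsf13b (3.23) and Prss27 (1.71) were at least 2-fold higher while Cfap45 lay at 0.33. Another pair, Cyp26a1 and the platelet chemokine gene Ppbp, passed the background flag on the array labelled A2 but not on the untreated one. The match is a description of letters in a window, so nothing about binding is drawn from it. The element was present in 4 of 9332 measured genes with a promoter in the table (0.0429%), in 3 of the 789 at least 2-fold higher (0.38%) and in 0 of the 605 at least 2-fold lower. Over all measured genes 8.02% were at least 2-fold higher.

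Among retinoid enzymes the increases lay in genes that remove active retinoids. Cyp26b1, the only CYP26 gene measured on both arrays, stood at -3.56 untreated and 2.80 on the array labelled A2, with -3.63 on the RA plus D3V array, where it was not well above background. Dhrs3, which reduces retinaldehyde to retinol, stood at 3.23, 6.69 and 4.57 in the same order. Both were highest on the array labelled A2, and only Dhrs3 was also more than 2-fold above untreated on the third array (1.35). The retinol dehydrogenases Rdh5 (-0.29), Rdh11 (-0.17) and Rdh12 (0.08) and the retinaldehyde dehydrogenase gene Aldh1a2 (0.29) lay within 2-fold. In all, this list had 9 measured members, 2 at least 2-fold higher and 0 lower (median 0.21). Aldh1a1 passed the background flag on the array labelled A2 and not on the untreated one. Its bound was only 1.30-fold, and it differed from the second control by -0.01. The secreted retinol carrier Rbp4 passed the flag on the untreated array only, at least 23.1-fold lower on the array labelled A2.

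Among 13 measured receptors and cofactors 2 were higher and 1 lower (median 0.04). Vdr, the vitamin D receptor, was at 0.33 untreated and 4.09 on the array labelled A2, with -0.32 on the RA plus D3V array. Nrip1, a corepressor that nuclear receptors recruit, was at -2.58, 2.70 and -3.23. For both genes the array labelled A2 stood apart and the others lay within 2-fold of each other. Rarg was lower (-1.07), and Rxra (-0.65), Rxrg (0.53), Ncoa2 (-0.23) and Ncoa3 (0.89) lay within 2-fold. Cyp24a1, the vitamin D hydroxylase, had a signal of -6.34 untreated and 6.07 on the array labelled A2, with -5.85 on the array labelled RA plus D3V. That is at least 1222-fold above untreated (probe at chromosome 2, 170308865 to 170308924, mm9).

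Of the 15 measured genes listed as induced by retinoids or vitamin D in myeloid cells, 6 lay at least 2-fold above untreated, 2 below and 7 between (median 0.45). The transglutaminase Tgm2 was at -0.95 untreated and 5.89 on the array labelled A2, with -1.69 on the RA plus D3V array, and its other probe gave 6.86 beside 6.83. Dapk2, a kinase known to be induced in granulocytic maturation, stood at -3.32, 2.91 and -0.81. Hic1, a transcriptional repressor, stood at -2.95, 2.31 and -5.72. The 3 genes were highest on the array labelled A2, but on the third array Dapk2 was higher than untreated (2.52) and Hic1 was not well above background. Cd38, an NAD-consuming surface enzyme (5.03), osteopontin, Spp1 (4.68), and hexokinase 3, Hk3 (1.17), were the others above 2-fold. Cathelicidin, Camp (-0.33), thrombomodulin, Thbd (0.01), and the fructose bisphosphatase Fbp1 (0.20) lay within 2-fold. The lipopolysaccharide co-receptor Cd14 (-1.24) and the zinc finger factor Zbtb16 (-1.28) were lower.

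Over all measured genes 1371 (8.02%) lay 2-fold or more above untreated and 981 (5.74%) 2-fold or more below, and the median difference was -0.02 with quartiles of -0.39 and 0.40. Among the 11523 measured genes of the RefSeq table without predicted genes the shares were 8.66% and 6.62%. The large differences lay mostly on the higher side: 355 genes lay 4-fold or more above untreated and 116 as far below, and for 16-fold the counts were 59 and 4. By signal, 433 of the 5698 brightest genes were higher and 156 lower (2.74%), whereas the 5698 dimmest gave 471 and 456. A further 1164 genes passed the background flag on the array labelled A2 and not on the untreated one, and 919 the reverse. Of these, 742 (63.75%) and 588 (63.98%) lay within 2-fold of the second control.

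**Figure D1:**
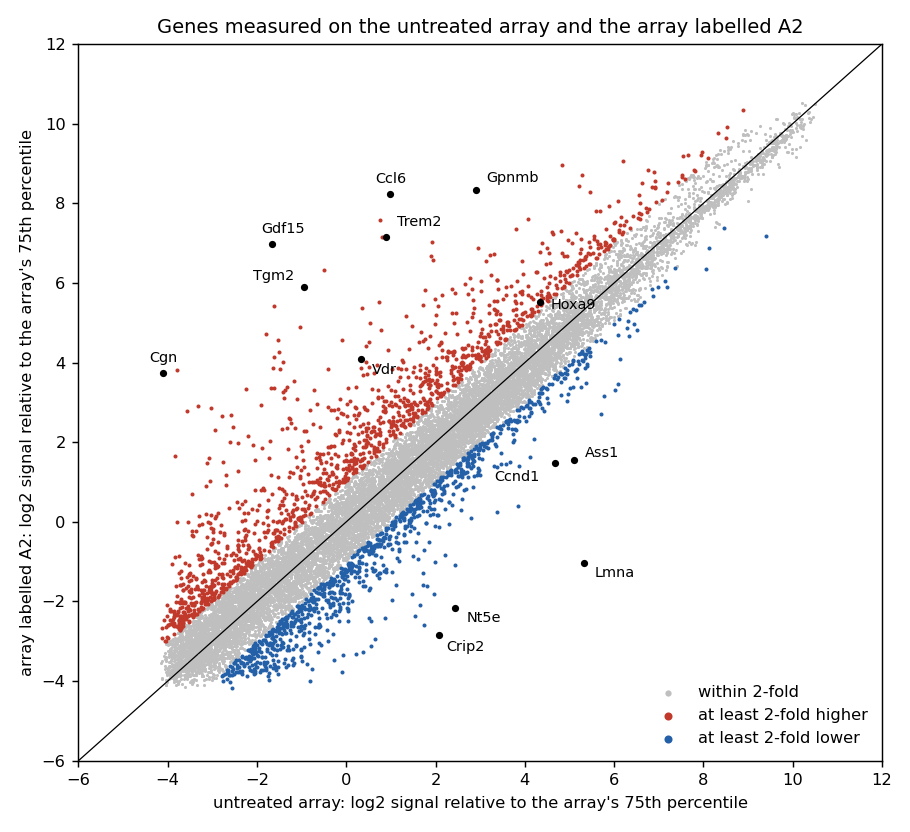
Level of each of the 17093 measured genes on the untreated array (x axis) against the array labelled A2 (y axis), both as log2 signal relative to the array's 75th percentile; the line marks equal levels, red points are 1371 genes at least 2-fold higher and blue points 981 at least 2-fold lower. Gdf15, Ccl6, Trem2 and Gpnmb lie far above the line at low to middling untreated levels, and Lmna lies far below it.

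The 15 largest increases among brightly measured genes held secreted proteins, surface receptors and enzymes. Gdf15, a stress-induced cytokine of the transforming growth factor beta family, was at -1.66 on the untreated array and 6.99 on the array labelled A2, with 0.79 on the RA plus D3V array, a 401-fold difference from untreated (probe at chromosome 8, 73153293 to 73153352, mm9). Ccl6, a chemokine of myeloid cells, was at 0.98, 8.23 and 2.57, 152-fold above untreated (chromosome 11, 83401997 to 83402056). Creatine kinase B, Ckb, which buffers ATP, was at -1.61, 5.41 and 0.81, and its probes gave differences of 7.02 and 7.07. These 3 genes also lay above untreated on the third array, by less.

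Others of the 15 stood apart on the array labelled A2 alone. Platelet-derived growth factor A, Pdgfa, was at -1.04 untreated and 4.89 on the array labelled A2, with -1.66 on the RA plus D3V array, with 5.96 on its other probe. Hbegf, a ligand of the epidermal growth factor receptor, was at -1.50, 4.27 and -2.44. Mdfi, an inhibitor of myogenic transcription factors, was at -1.79, 4.72 and -2.78. On the third array these 3 genes, like Tgm2, lay below their untreated level. Fam20c, a kinase of secreted proteins, was at -1.52, 4.56 and -0.57.

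A second set within the 15 was high on both treated arrays. Trem2, a lipid-sensing receptor of macrophages, was at 0.89 untreated and 7.15 on the array labelled A2, with 6.22 on the RA plus D3V array. Aldolase C, Aldoc, a glycolytic enzyme, was at 0.80, 7.14 and 6.59. The mitochondrial protein gene Mgarp (-3.80, 3.81 and 2.84) and the membrane protein gene Ms4a7 (-3.02, 2.86 and 1.73) had the same order. Cingulin, Cgn, a tight junction protein, was at -4.10, 3.73 and 1.53. For these 5 genes both treated arrays lay at least 16-fold above the untreated one.

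**Figure D2:**
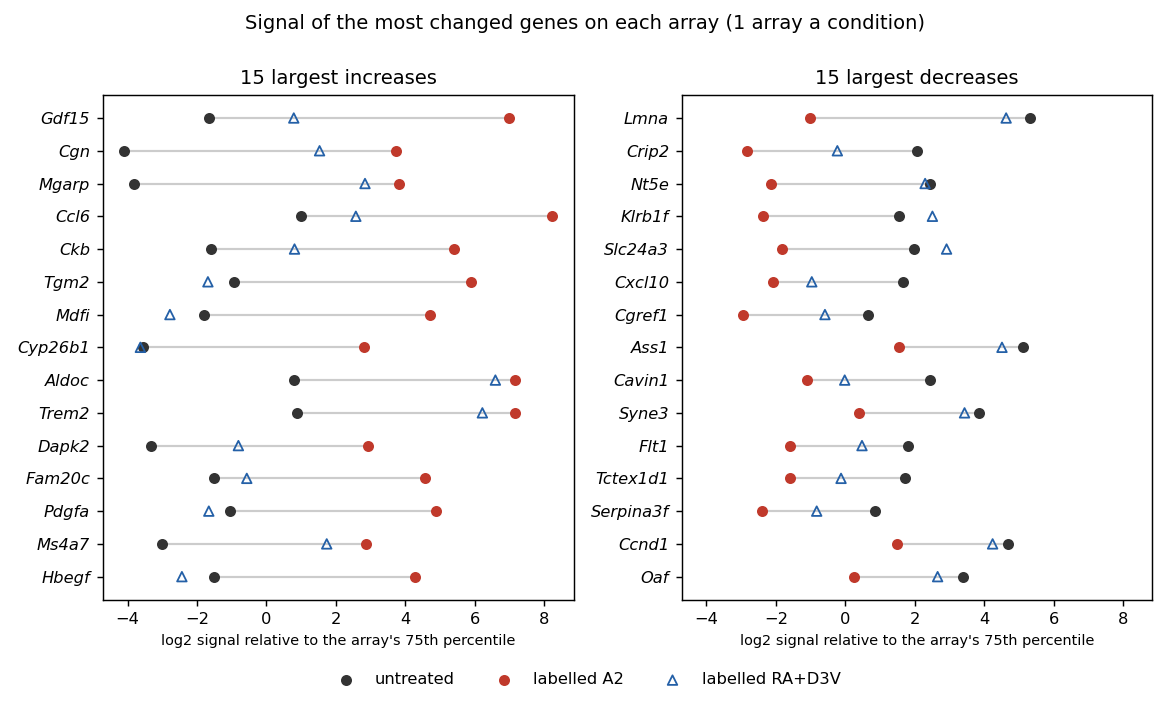
Levels of the 15 genes with the largest increase (left) and the 15 with the largest decrease (right), as log2 signal relative to the array's 75th percentile, 1 array a condition. Dark circles are the untreated array, red circles the array labelled A2 and open triangles the array labelled RA plus D3V. The triangles for Aldoc and Trem2 sit near the red circles, while those for Tgm2, Pdgfa and Lmna sit near the dark ones.

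Genes seen on the array labelled A2 but not well above background on the untreated array were led by arginase 1, Arg1, which cleaves arginine to ornithine. Its signals were -5.43 untreated and 8.39 on the array labelled A2, with -1.05 on the RA plus D3V array, at least 6086-fold above untreated (probe at chromosome 10, 24636194 to 24636253, mm9). Tgfb3, a transforming growth factor beta ligand, was at least 181-fold higher, the bound was 140-fold for Ppbp, 91.4-fold for Ak4, an adenylate kinase of mitochondria, and 78.2-fold for the muscle kinase Speg. On the third array Ppbp (1.17) and Ak4 (1.58) were well above background too, below their levels on the array labelled A2 (2.94 and 2.33), whereas Tgfb3 was not.

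Lamin A/C, Lmna, the intermediate filament of the inner nuclear membrane, had the largest decrease. It was at 5.33 untreated and -1.03 on the array labelled A2, with 4.63 on the RA plus D3V array, 81.9-fold below untreated on its single measured probe (chromosome 3, 88287262 to 88287321, mm9). Against the second control the difference was -6.44. The ecto-5'-nucleotidase gene Nt5e, which makes adenosine outside the cell, was at 2.44, -2.15 and 2.30, and the cyclin gene Ccnd1 at 4.68, 1.49 and 4.24. Ass1, which joins citrulline to aspartate on the way to arginine, was at 5.10, 1.55 and 4.51, with -3.55 on its other probe. For these 4 genes the third array lay within 2-fold of untreated and the array labelled A2 stood apart.

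The remaining decreases were of several kinds. The LIM protein gene Crip2 (2.07 untreated, -2.84 on the array labelled A2, -0.23 on the third array), the interferon-induced chemokine gene Cxcl10 (1.66, -2.09, -0.97) and the caveolar coat gene Cavin1 (2.43, -1.09, -0.02) were lower on both treated arrays. The lectin-like receptor gene Klrb1f (1.54, -2.36, 2.51) and the ion exchanger gene Slc24a3 (1.97, -1.81, 2.91) lay below untreated on the array labelled A2 and above it on the third. Syne3, which links the nuclear envelope to the cytoskeleton (-3.44), the growth factor receptor Flt1 (-3.42, and -2.82 on its other probe), the protease inhibitor gene Serpina3f (-3.28), Cgref1 (-3.59), Tctex1d1 (-3.32) and Oaf (-3.14) completed the 15. Of the 8 largest bounds on the lower side, those of Hoxa13 (13.0-fold) and Eda (11.7-fold) rest on the untreated array alone, since the second control was itself below the lowest signal well above background. The profilin gene Pfn2, which regulates actin (bound 14.6-fold), Bex6 (17.2-fold), the water channel Aqp3 (14.3-fold), Zfp365 (11.8-fold) and the prostaglandin receptor gene Ptger4 (10.8-fold) were at least 2-fold below the second control as well.

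The measured genes were then read by 51 lists of pathways, complexes and families. Their counts stand against 8.66% higher and 6.62% lower among RefSeq genes, and they describe these arrays without a test.

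**Figure D3:**
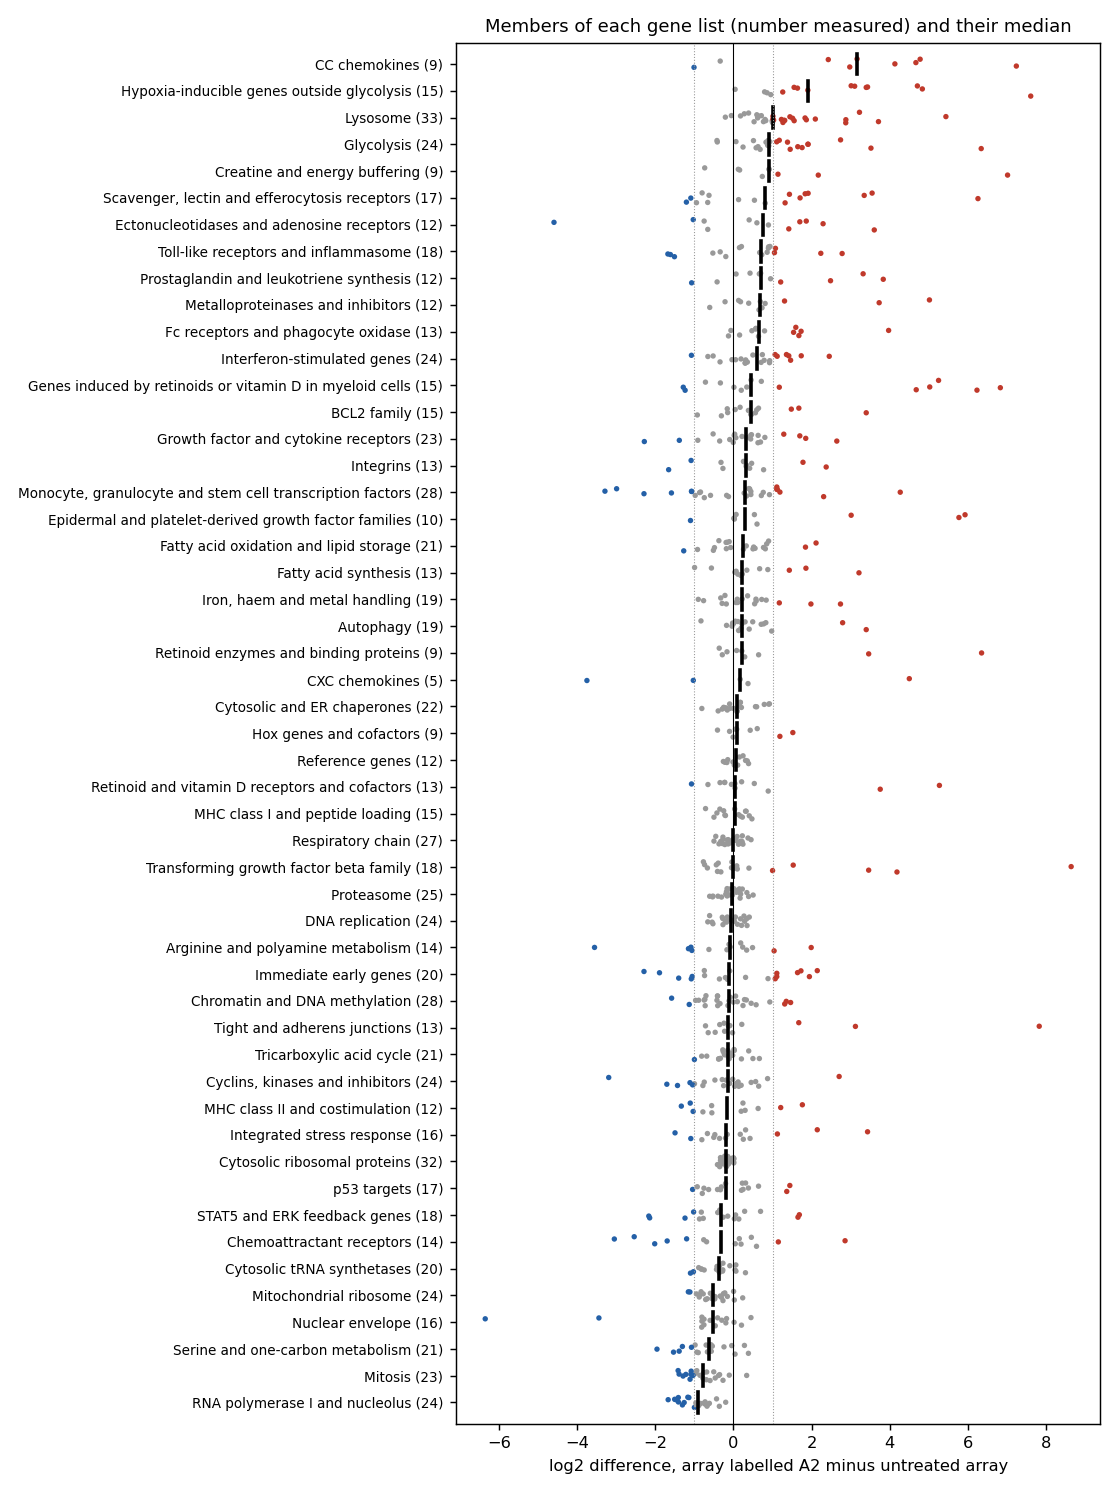
Log2 difference (array labelled A2 minus untreated) of each measured member of 51 gene lists, 1 point a gene, red where at least 2-fold higher and blue where at least 2-fold lower; black bars are list medians, dotted lines mark 2-fold, and the number measured follows each name. CC chemokines, hypoxia-inducible and lysosome genes have the highest medians, and nucleolar and mitosis genes the lowest.

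CC chemokines, the small proteins that attract monocytes and other leukocytes, were the list with the highest median: of 9 measured members 7 lay at least 2-fold above untreated and 1 below (median 3.17). Ccl9 was at 4.82 untreated and 8.96 on the array labelled A2, with 6.10 on the RA plus D3V array, and Ccl4 at 1.89, 6.67 and 4.27. Ccl2 (-0.11, 4.57 and 5.61), Ccl7 (-3.22, -0.06 and 3.31) and Ccl12 (-2.11, 0.32 and 3.42) had another order. The macrophage inflammatory chemokines Ccl3, Ccl4, Ccl6 and Ccl9 were highest on the array labelled A2, and the monocyte chemoattractants Ccl2, Ccl7 and Ccl12 were highest on the RA plus D3V array. Ccl5 was lower on both (-1.01 and -1.09), and Ccl17 lay at -0.34. Ccl24 passed the background flag on the array labelled A2 and not on the untreated one (bound 23.5-fold). Of 5 measured CXC chemokines the platelet factor gene Pf4 was higher (4.50), and Cxcl10 and Cxcl16 (-1.03) were lower. Cxcl3 (bound 27.1-fold), Cxcl14 (4.17-fold) and Ppbp passed the flag on the array labelled A2 and not on the untreated one. Cxcl1 (1.31-fold) and Cxcl9 (1.99-fold) did the reverse.

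The receptors for such signals went the other way more often. Of 14 measured chemoattractant receptors 5 were at least 2-fold lower and 2 higher (median -0.32). The fractalkine receptor Cx3cr1 (-3.05, -2.64 on its other probe), the neutrophil receptor Cxcr2 (-2.54) and Ccr7 (-1.70) were lower, and the complement receptor C5ar1 (2.86) and the platelet-activating factor receptor Ptafr (1.15) were higher. Cxcr2 was higher than untreated on the third array (1.50).

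Growth factors and their receptors had calls from just past 2-fold (Nodal) to 401-fold (Gdf15). In the transforming growth factor beta list 5 of 18 measured members were higher and 0 lower (median -0.02). Beside Gdf15 they were the latent binding protein gene Ltbp3 (4.19 and 6.05 on its probes), the type II receptor Tgfbr2 (2.38 untreated, 5.84 on the array labelled A2, 1.76 on the third array), the signal transducer Smad3 (1.53) and Nodal (1.00). The inhibitor Smad7 (-0.67) and the ligand gene Tgfb1 (0.10) lay within 2-fold. In the epidermal and platelet-derived growth factor list Pdgfa, Hbegf and Vegfa (3.01 and 3.55 on its probes) were higher, Egf was lower (-1.10) and 6 of 10 lay within 2-fold. Among 23 measured growth factor and cytokine receptors 4 were higher, the decoy receptor Il1r2 (2.65), Ifngr1 (1.85), the stem cell factor receptor Kit (1.70) and Csf2rb2 (1.29), and Flt3 (-2.28) and Il17ra (-1.39) were lower.

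Phagocyte receptors were higher in many members. Of 17 measured scavenger, lectin and efferocytosis receptors 8 were higher and 2 lower (median 0.81). Beside Trem2, the beta-glucan receptor Clec7a was at 3.80 untreated and 7.35 on the array labelled A2, with 4.63 on the RA plus D3V array. Cd300lf (3.35) and Stab1 (1.91) were higher, and Cd300a (-1.21) and Clec4d (-1.09) were lower. Of 13 Fc receptor and phagocyte oxidase genes 5 were higher and 0 lower (median 0.64): Fcgr4 (0.44, 4.41 and 1.29), Fcgr3 (1.73), Ncf1 (1.68), Rac2 (1.60) and Fcgr1 (1.54), while the catalytic subunit gene Cybb lay at -0.07. Of 18 Toll-like receptor and inflammasome genes 4 were higher and 3 lower. Tlr13 (2.78) and Tlr4 (2.24) were highest, and Casp4 (-1.68), Il1b (-1.61) and Tlr2 (-1.51) lowest.

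Itgam, which encodes the myeloid integrin subunit CD11b, was read by 3 probes that differed by 2.13 to 2.37. It was at 2.08 untreated and 4.45 on the array labelled A2, with 4.39 on the RA plus D3V array, so both treated arrays stood alike above the untreated one. Its partner Itgb2 was higher (1.78), Itga1 (-1.66) and Itgal (-1.08) were lower, and the macrophage receptor Csf1r lay within 2-fold on its 3 probes (0.69 to 0.87). Of 12 measured metalloproteinases and inhibitors Mmp8 (5.02), Mmp9 (3.73) and Mmp14 (1.31) were higher and 0 were lower.

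Lysosomal genes were the longest list to lie on the higher side. Of 33 measured members 18 lay at least 2-fold above untreated, 0 as far below and 31 above 0 (median 1.01). Gpnmb, a glycoprotein of lysosome-rich macrophages, was at 2.90 untreated and 8.34 on the array labelled A2, with 4.49 on the RA plus D3V array. The asparaginyl protease gene Lgmn was at 1.72, 5.44 and 4.91, and the sphingolipid activator gene Psap at 5.21, 8.44 and 6.26. Lgmn was nearly as high on the third array, whereas Psap and the acid lipase gene Lipa (2.88 against 0.30) were higher on the array labelled A2. The cathepsin D gene Ctsd (2.88), Ctsb (2.10), the glucocerebrosidase transporter gene Scarb2 (1.87) and the proton pump subunit gene Atp6v1a (1.45) were also above 2-fold. The regulator gene Tfeb lay at 0.18. Over the list the median difference was 0.55 on the RA plus D3V array, which shares the untreated array.

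Transcription factors of the Tfeb family are known to bind CACGTG and related letters in lysosomal promoters, so that motif was searched in the same 250 bases. Its letters read the same on both strands. It was present in 10 of 28 lysosome genes with a promoter in the table (35.7%), 2 of 20 nucleolar genes (10%) and 1854 of 27025 genes (6.86%). The promoters of 2 lysosome genes, Ctsd (chr7:142387828-142388077, minus strand) and Lgmn (chr12:102439093-102439342, minus strand) are shown as examples, with the motif in capitals.
Ctsd: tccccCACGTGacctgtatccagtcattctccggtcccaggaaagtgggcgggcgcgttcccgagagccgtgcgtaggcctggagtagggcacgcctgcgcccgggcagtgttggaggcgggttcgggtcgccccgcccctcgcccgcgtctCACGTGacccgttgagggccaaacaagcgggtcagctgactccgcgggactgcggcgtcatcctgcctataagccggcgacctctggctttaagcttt
Lgmn: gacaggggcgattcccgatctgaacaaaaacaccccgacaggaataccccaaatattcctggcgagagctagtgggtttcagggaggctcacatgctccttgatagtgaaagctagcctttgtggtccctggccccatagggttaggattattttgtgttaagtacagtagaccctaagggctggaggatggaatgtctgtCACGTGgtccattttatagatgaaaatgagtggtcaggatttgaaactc
Of 10 measured lysosome genes with the motif 6 were at least 2-fold higher (median 1.14). Of 18 without it 10 were (median 1.02). Whether the motif bears on these differences was not tested. Among all measured genes with a promoter in the table, it was present in 77 of 789 higher genes (9.76%), 49 of 605 lower ones (8.1%) and 930 of 9332 in all (9.97%).

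Genes of glucose use were higher together. Of 24 measured glycolysis genes and transporters 11 lay at least 2-fold above untreated and 0 below (median 0.92). Beside Aldoc, the lactate exporter Slc16a3 was at 4.07 untreated and 7.59 on the array labelled A2, with 6.54 on the RA plus D3V array. The phosphofructokinase gene Pfkl (2.74), the glucose transporter gene Slc2a1 (1.91) and Tpi1 (1.91) followed, and Slc2a3 (-0.41) and Eno2 (-0.42) lay below 0. Of 15 hypoxia-inducible genes outside glycolysis 11 were higher and 0 lower (median 1.90). Mgarp, the collagen hydroxylase gene P4ha2 (4.84), Ankrd37 (4.71) and Ddit4 (3.43) led, and Car9 lay at 0.04. The mitophagy receptor genes Bnip3 and Bnip3l were read by 3 and 4 probes, which gave 2.92 to 3.40 and 2.48 to 2.82. Both lists lay high on the third array as well, with medians of 0.89 and 1.18.

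Mitochondrial metabolism showed no such shift. None of 27 measured respiratory chain genes differed by 2-fold (median 0.00, range -0.50 to 0.45), and of 21 tricarboxylic acid cycle genes 1, Idh3a (-1.0003), was lower. Creatine and energy buffering genes had 3 of 9 higher, with the creatine transporter gene Slc6a8 (2.17) and Gamt (1.14) beside Ckb. Arginine and polyamine genes went both ways: beside Arg1, the spermine oxidase gene Smox (1.99) and Sat1 (1.04) were higher, and Ass1, the arginine transporter gene Slc7a1 (-1.15), Srm (-1.09) and Odc1 (-1.06) were lower. The mitochondrial arginase gene Arg2 lay at 0.34. In fatty acid synthesis Acss2 (3.21), Fads2 (1.86) and Acly (1.43) were higher among 13 measured genes and the synthase Fasn lay at -0.56, while the desaturase gene Scd1 passed the background flag on the array labelled A2 but not on the untreated one. Of 12 measured prostaglandin and leukotriene genes 4 were higher and 1 lower (median 0.69). Ptgs1 (3.84), Tbxas1 (3.32) and Ltc4s (2.49) were highest, and the prostaglandin E synthase gene Ptges2 (-1.07) was lower. The haem oxygenase gene Hmox1 was higher on both of its probes (2.74 on the brighter).

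Nucleolar genes, which make and process ribosomal RNA, lay below untreated in all 24 measured members of the list, 10 of them by at least 2-fold (median -0.92). Utp20 was at 1.43 untreated and -0.24 on the array labelled A2, with 0.82 on the RA plus D3V array, and Rrp9 at 3.80, 2.30 and 3.02. Nop58 (-1.48) and the polymerase I subunit gene Polr1b (-1.41) were close, and Polr1a (-0.20) lay nearest 0. For each of Utp20, Rrp9, Nop58 and Polr1b the third array lay between the others. The 32 measured cytosolic ribosomal protein genes all lay within 2-fold (median -0.20, range -0.41 to 0.01). Of 24 mitochondrial ribosome genes 2 were lower, Mrpl9 (-1.16) and Mrps22 (-1.11), with a median of -0.52. Serine and one-carbon genes had 5 of 21 lower and 0 higher (median -0.63), led by the purine enzyme gene Gart (-1.96) and the folate enzyme gene Mthfd2 (-1.53). The 25 measured proteasome genes lay within 2-fold (median -0.03).

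Mitosis genes were lower in part, and DNA replication genes lay within 2-fold. Of 23 measured mitosis genes 8 were at least 2-fold lower and 0 higher (median -0.78), among them the anaphase activator gene Cdc20 (5.38 untreated, 3.97 on the array labelled A2, 3.49 on the RA plus D3V array) and the kinesin gene Kif23 (1.66, 0.44, -0.03). Both were lowest on the third array, where the list's median was -1.21. The 24 measured DNA replication genes all lay within 2-fold of untreated (median -0.05, range -0.66 to 0.41). Among cyclins, kinases and inhibitors Ccnd1 was lower and Ccnd2 higher (3.37, 6.07 and 4.01), and Cdkn2b (-1.71), Cdk6 (-1.43) and Ccna2 (-1.11) were lower. The inhibitor gene Cdkn1a had probes from -1.05 to 0.24, so it has no single direction.

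Transcription factors of the myeloid lineage divided. Of 28 measured members 6 were higher and 6 lower (median 0.30). The macrophage factor Maf (-2.77 untreated, 1.50 on the array labelled A2, 1.52 on the third array) was higher on both treated arrays. The progenitor factors Gfi1b (-0.07, -3.36, 0.47) and Gata2 (1.98, -1.01, 2.08) were lower on the array labelled A2 alone. Myc was at 2.95, 1.36 and 2.31, and Nr4a1 at -2.29 from untreated. Cebpb (1.12) and Irf8 (1.19) were higher, and Spi1 lay at -0.13. Hoxa9, one of the genes the cells are named for, was at 4.34, 5.53 and 4.72, with differences of 1.19 and 1.82 on its probes. Meis1 did not pass the background flag on the 3 arrays. Of 9 measured Hox genes and cofactors Hoxa9 and Hoxb3 (1.52) were higher and 0 were lower.

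Signalling feedback and early response genes went both ways. Of 20 measured immediate early genes 7 were higher and 5 lower (median -0.12). Atf3, a stress-induced repressor, was at -0.59 untreated and 1.55 on the array labelled A2, with 1.64 on the RA plus D3V array. Ier3 (1.94) and the zinc finger factor Klf2 (1.73) were higher too, and the mRNA decay factor Zfp36 (-1.89) was lower. Of 18 feedback genes of STAT5 and ERK signalling, 2 were higher and 4 lower (median -0.31). The phosphatase gene Dusp2 was at 3.67, 1.50 and 2.52, lower on both treated arrays. The cytokine feedback inhibitors Cish (5.35, 4.11 and 5.28) and Socs3 (4.09, 3.07 and 4.05) were lower on the array labelled A2, while the third array lay near untreated. The phosphatase gene Dusp6 (1.65) and the kinase gene Pim3 (1.69) were higher, and Pim3 lay below untreated on the third array (-0.97).

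Chromatin and lipid genes had members on both sides, in shares near those among RefSeq genes (8.66% higher and 6.62% lower). Of 28 chromatin and DNA methylation genes 3 were higher and 2 lower (median -0.13). The DNA methyltransferase genes opposed each other, Dnmt3a at 1.05 untreated and 2.52 on the array labelled A2, and Dnmt3b at 2.54 and 0.96. The methylcytosine oxidase gene Tet2 was lower (-1.13) and the histone demethylase gene Kdm5b higher (1.35). Of 21 fatty acid oxidation and lipid storage genes the lipid droplet gene Plin2 (2.11) and the nuclear receptor gene Pparg (1.84) were higher and the lipase inhibitor gene Angptl4 (-1.27) lower. The metal transporter gene Slc11a1 of phagosomes was at 4.28, 6.26 and 3.55, above untreated on the array labelled A2 and below it on the third. Among 15 BCL2 family genes Bmf (1.67) and Bik (1.48) were higher beside Bnip3, and 0 were lower. Bik was dim on the untreated array (-3.96) and lay only 0.75 above the second control. Of 12 MHC class II and costimulation genes the checkpoint ligand gene Cd274 (1.76) was highest and Icosl (-1.33) lowest.

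Structural, surface and stress lists differed in how many members were called. Of 16 nuclear envelope genes Lmna and Syne3 were lower and the other 14 lay within 2-fold (median -0.53), Lbr at 0.02 and Sun1 at -0.81 on its brighter probe and 0.87 on the other. Of 13 junction genes Cgn, its paralogue Cgnl1 (3.12) and Pard3 (1.67 on its brighter probe, 0.21 on the other) were higher. Their untreated levels (-4.10, -3.46 and -3.69) lay near the lowest signal well above background there (-4.19). Claudin 4 passed the background flag on the array labelled A2 but not on the untreated one. Its bound was 2.32-fold, and it lay only 0.38 above the second control. Of 12 measured ectonucleotidases and purine receptors 5 were higher, led by the ATP-gated channel P2rx7 (3.61) and P2ry6 (2.29), and Nt5e was far lower. Interferon-stimulated genes had 7 of 24 higher and 1 lower (median 0.60), with Zbp1 at 2.45 and Gbp3 at -1.08. The 15 MHC class I and peptide loading genes and the 22 measured chaperone genes lay within 2-fold. The heat shock genes Hspa1a and Hspb1 passed the background flag on the untreated array and not on the array labelled A2, at least 3.91-fold and 4.35-fold lower there. The 12 reference genes lay between -0.26 and 0.39.

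The cells were checked against markers fixed by type. Of 12 markers of the AML cells 11 were well above background on both arrays, and Meis1 on neither. Of the 11, 3 were higher and 2 lower (median -0.13). The summed signal of the whole list was 1484 untreated and 814.4 on the array labelled A2, in units of the array's 75th percentile. The sum is weighted to the brightest members, such as Mpo (9.39 untreated and 7.17 on the array labelled A2). Among 9 macrophage markers 7 passed the background flag on the untreated array and 9 on the array labelled A2. Of the 7 measured 5 were at least 2-fold higher (median 1.54), and the summed signal of all 9 was 144.7 untreated and 315.2 on the array labelled A2. Of 10 T and NK cell markers 6 were measured and 3 were lower, with summed signals of 20.04 and 19.94 and with Cd8a, Klrb1c and Ncr1 below background on both arrays. Of 8 megakaryocyte and platelet markers 4 were measured and 2, Pf4 and Vwf, were higher (summed signal 1.218 against 19.22), while Itga2b, Gp9 and Gp1bb were below background on both. Erythroid markers gave 3 measured and 2 lower (4.041 against 2.404), and B cell markers 5 measured and 0 changed by 2-fold (19.19 against 18.94), with Pax5, Ebf1 and Igll1 below background on both. Eosinophil markers gave 3 measured and 2 higher (1.637 against 3.417), with Epx and Ccr3 below background on both. Dendritic cell markers gave 3 measured and 0 of these changed by 2-fold (121.7 against 143.1). Their marker Clec9a passed the background flag on the array labelled A2 and not on the untreated one, at least 7.82-fold higher. Mast cell and basophil markers gave 2 measured and 0 of these changed by 2-fold (0.8941 against 0.7405), with 5 below background on both. Cpa3 passed the flag on the untreated array only, at least 2.47-fold lower on the array labelled A2. Stromal and endothelial markers gave 3 measured and 0 of these changed by 2-fold (7.224 against 10.91). Of this list 4 passed the flag on the untreated array and 5 on the array labelled A2. The collagen genes Col1a1 and Col1a2 passed it on the latter only, with bounds of 4.72-fold and 1.71-fold. From the second control Col1a1 differed by 2.04 and Col1a2 by -0.01. In such bulk RNA more cells of a type and more RNA per cell cannot be told apart. The part of cell type shares in the chemokine, phagocyte and lysosome values was not tested.

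Each difference was also taken from the second control, so both differences share the array labelled A2. Of the 1371 higher genes 1081 were at least 2-fold above it too, and of the 981 lower genes 754 were at least 2-fold below it. Of the higher genes 6 had the opposite sign against it, and of the lower genes 14. Gdf15 differed from it by 8.93, Ccl6 by 7.44, Pdgfa by 5.84, Ass1 by -3.47 and Ccnd1 by -3.09. Of the 30 leading genes none lay within 2-fold of it. They were picked for the largest differences on that same array, so no check is drawn from this.

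**Figure D4:**
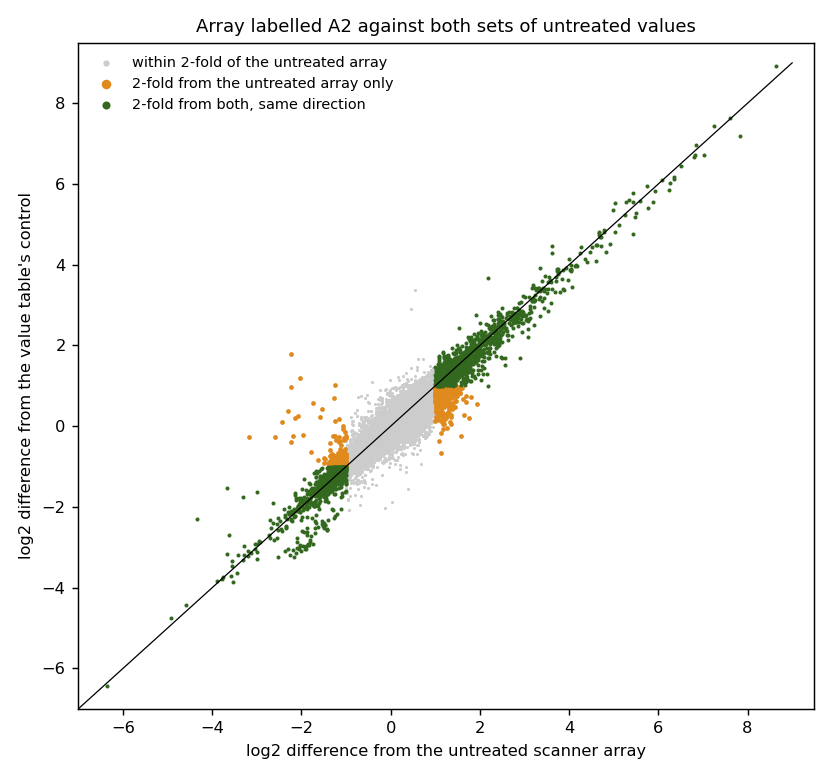
Log2 difference of each measured gene on the array labelled A2 from the untreated scanner array (x axis) and from the value table's control (y axis), with the line of equal values. Green points are at least 2-fold from both in the same direction (1081 higher and 754 lower), orange points from the untreated array only; a small cloud below the line on the lower side is described in the closing section.

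Probes of the same gene were mostly close. For 4446 genes with more than 1 measured probe the median SD between their differences was 0.1877. Of the 540 of them called at 2-fold on the brightest probe, 321 had every probe at least 2-fold apart in the same direction and 51 had a probe of the opposite sign. Itgam, Nhsl2, Bnip3l and Bnip3 were at least 4-fold higher on each of 3 or more probes, Nhsl2 by 2.17 to 2.53 on 4 measured probes, and no gene was so on the lower side. Another Nhsl2 probe, well above background on the untreated array alone, lay the other way (-0.80). Cped1 (-1.17 and 1.23) and Fsd1l (-1.0045 and 2.57) had probes at least 2-fold to either side.

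Genes that moved the same way lay side by side in places. In the gene order of GRCm38.p6, 140 of 9990 neighbouring pairs of measured protein-coding genes within 200 kb were both higher, 46 both lower and 87 opposite. Of the 11789 measured protein-coding genes 8.66% were higher and 6.48% lower. How many such pairs and runs these shares alone would give was not worked out, so the runs are a description only. There were 21 runs of 3 or more, 19 of them higher, with 74 genes in all. The longest, on chromosome 11, held 6 genes: Ccl9, Ccl6, Ccl3, Ccl4, Wfdc17 (1.95) and Wfdc18 (2.37). Another on that chromosome held Ccl2, Ccl7 and Ccl12. Around Gdf15 on chromosome 8, Ssbp4 (1.72), Lrrc25 (2.87) and Pgpep1 (2.77) were also higher. Fam20c and Pdgfa are neighbours on chromosome 5, next to the protein kinase A subunit gene Prkar1b (-1.34 untreated, 2.36 on the array labelled A2, -2.47 on the third array), and all 3 were high on the array labelled A2 only. The type IV collagen genes Col4a1 (4.16) and Col4a2 (2.10), transcribed from a shared promoter, lay in a run with Irs2 (1.99) and Rab20 (2.97) on chromosome 8. The lower runs were Serpina3f, Serpina3g (-1.69) and Serpina3i (-1.83) on chromosome 12, whose near-identical sequences leave their single values uncertain, and Top2a (-1.39), Igfbp4 (-2.04) and Ccr7 on chromosome 11. The Gstt, Oas1, Klk1, Cd300, Phf11 and Ccl runs also hold members of a gene family, so their genes are not all unrelated neighbours.

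**Figure D5:**
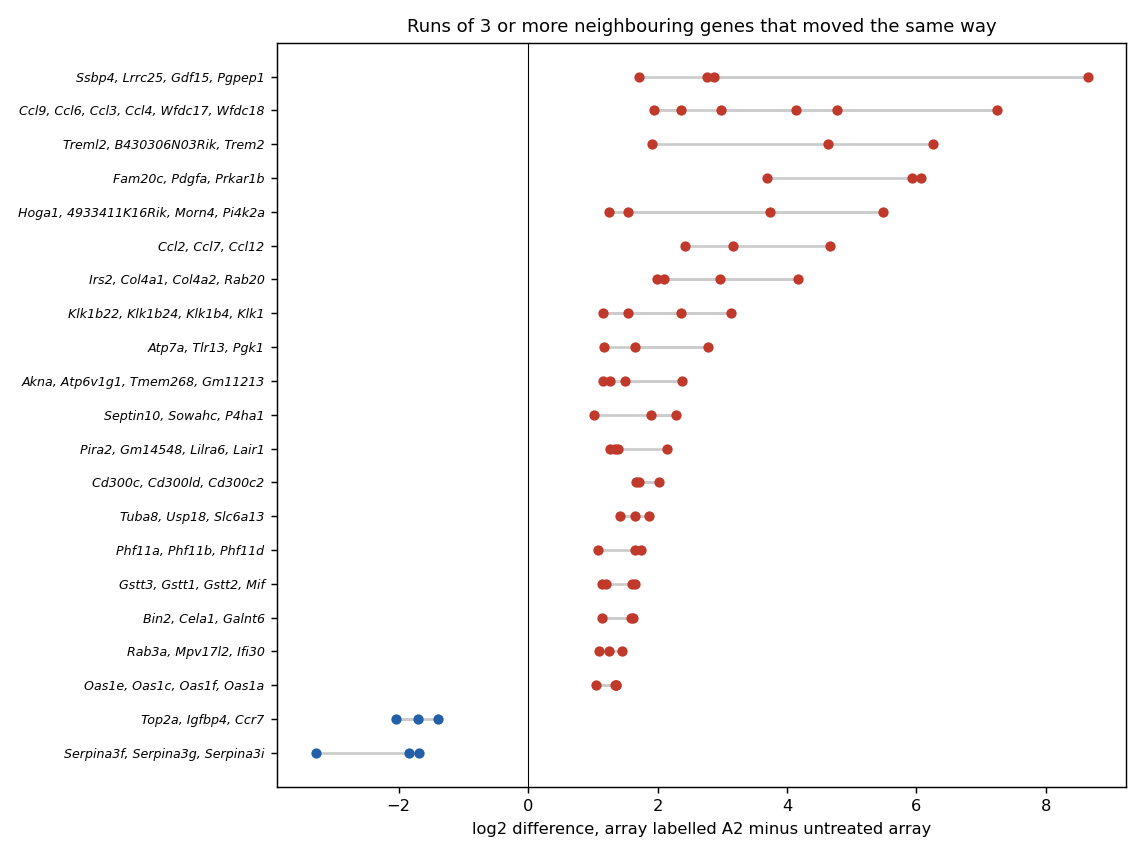
Log2 differences (array labelled A2 minus untreated) of the genes in each of 21 runs of 3 or more neighbouring measured protein-coding genes that were at least 2-fold apart in the same direction; 1 point a gene, red for the 19 higher runs and blue for the 2 lower ones. The widest run spans 1.72 (Ssbp4) to 8.65 (Gdf15).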

How the data were processed

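Per the file headers, the deposited arrays were read with Agilent Feature Extraction 11.5.1.1 (also in the submitters' processing notes), which gave a background-subtracted intensity a spot, not scaled between arrays, for 60-base probes placed on mm9. Per the labels, 50 ng of total RNA was labelled with Cy3. Other deposited columns are flags of the authors' scanner software. The authors' value table is an intensity that had been quantile normalized.

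Here, log2 of the processed signal minus the array's 75th percentile was used, spots of a probe were averaged, and the brightest probe stood for a gene. Of 55657 probes, 27727 were named by accession, 3348 by symbol and 313 by synonym from RefSeq, and 24269 kept the file's name. Exons are not given, since the annotation is of another build. A fold against a signal not well above background is a bound, against the higher of that signal and the lowest signal well above background there. The steps were tested on simulated data. Python 3.11.15, R 4.3.3 and limma 3.58.1 were used.

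The named genes were the 15 largest increases and decreases among RefSeq genes with a bright signal, the 8 largest bounds each way, up to 4 highest and 4 lowest members of each list, 11 genes named whatever their value, and genes whose probes agreed or opposed. Other genes were named after their values were seen. Some genes within the rule are left out of the text. The members, lists and rule were chosen with earlier results of these data known.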

Additional observations from a re-analysis of the deposited data

How the results depend on the processing

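No paired analysis was possible because each condition has 1 array. Under 10 alternatives the counts of genes at least 2-fold higher or lower were 1371 and 981 as reported, 1384 and 967 with scaling to the median of detected probes, 1272 and 1031 with quantile normalization, 1285 and 1030 in the value table, 1360 and 957 with the median over probes, 1368 and 1117 with G and T probes kept, and 1332 and 955 with such probes left out from 6 bases. Normexp gave 949 and 587, brighter genes only 927 and 524, and no background flag 3755 and 2480. With probes of 6 or more alternating G and A bases left out too, an alternative chosen after seeing the data, the counts were 1340 and 901. The spread between probes of a gene was 0.3338 with no background flag. Cped1 reversed, to 0.028, with the median over probes. Of 465 list medians and named values, 82 moved by more than the SD between the controls with normexp and 50 with the value table, and of those at least 2-fold apart all but Cped1 kept their side of 0. Levels near background limit the dimmest genes, whose calls were split most evenly.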

Other observations

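The next 30 genes in the order of increase, chosen after their values were seen, were of several kinds. The heparan sulphate proteoglycan gene Sdc3 was at -1.62 untreated and 4.14 on the array labelled A2, with 0.96 on the RA plus D3V array. Lrrc32, which tethers latent transforming growth factor beta to the cell surface, was at -2.25, 3.35 and -1.75, and stood apart on the array labelled A2, as Ltbp3, Tgfb3 and Tgfbr2 did. The costimulatory receptor gene Cd28 (4.79), clusterin, Clu (4.73), the efflux pump gene Abcc3 (4.69) and the ADP receptor gene P2ry13 (4.67) were also in this set. Camkk1, a calmodulin-dependent kinase kinase gene, was at -1.42, 4.01 and -2.01, and Cdr2l at -2.53, 2.38 and -5.69, with no signal well above background on the third array for Cdr2l.

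The next 30 decreases, chosen in the same way, were also mixed. S100a4, a calcium-binding protein gene, was at 5.71 untreated and 2.71 on the array labelled A2, with 7.46 on the RA plus D3V array, and so lay below untreated on one treated array and above it on the other. The cytolinker gene Plec (-2.63), the keratin gene Krt18 (-2.35), the scaffold gene Ahnak (-2.12 on its brightest of 4 probes, -0.84 on the least changed) and the membrane protein gene Emp1 (-2.28) were lower. Myeloperoxidase, Mpo, was at 9.39, 7.17 and 7.82.

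A group of decreases followed the letters of the probes. Probes with 8 or more alternating G and T bases, which were left out, had a median difference of -1.04, and 151 of 291 (51.89%) were at least 2-fold lower. Probes with 8 or more alternating A and G bases, which the comparison kept, had a median of -0.69, and 60 of 153 (39.22%) were at least 2-fold lower, against 6% of 22515 probes with runs under 6. Their median was -1.07 from the second control and -0.41 on the RA plus D3V array. Probes with 8 or more alternating A and C bases (median 0.04, 7 of 143 lower) or C and T bases (median 0.21, 2 of 116 lower) had no such shift, while for A and T bases 10 of 72 (13.89%) were lower with a median of -0.03. Of the 981 lower genes 9.07% were read by a probe with 6 or more alternating A and G bases, and 56 lower genes lay at least 0.6 further below the second control than below the untreated array. Of those 56 genes 53 had such a probe, and they are the cloud below the line in the plot against the second control. Stretches of 30 bases of 3 of these probes are shown, 5′ to 3′ as in the scanner file, with the run in capitals.
Cabp5 (chr7:13993821-13993880, mm9): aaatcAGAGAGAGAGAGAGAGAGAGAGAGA
Dcaf12l2 (chrX:41719459-41719518, mm9): GAGAGAGAGAGAGAGAGAGAGAGAtttcta
Tbx22 (chrX:104881102-104881161, mm9): aaggaaagagaaAGAGAGAGAGAGAGAGAG
Cabp5 was at 4.31 untreated and 3.02 on the array labelled A2, with 4.41 on the RA plus D3V array, and Dcaf12l2 at 4.38, 2.85 and 3.99. Among the named genes, 9 had a probe with 6 or more such bases, Vdr, Pdgfa, P2ry6, Ncf1, Entpd1, Top2a, Hdac2, Lta4h and Sun1. Runs of 6 or 7 had a median of -0.07, with 53 of 801 probes (6.62%) at least 2-fold lower. The cause of the lower values was not tested.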
